A study of Mus musculus with 2 samples.

Results

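The genes described here are 8 genes of vitamin A and carotenoid absorption: Rbp2, Lrat, Bco1, Scarb1, Rdh7, Isx, Retsat and Stra6. They were chosen by name for their roles, with earlier results of these data known. All were found in both gene tables through the GENCODE annotation, and they are 8 of 43346 Ensembl genes listed. Their 41 annotated transcripts were followed in the transcript tables. The RNA is from small intestine tissue of C57BL/6J mice, an inbred laboratory strain, at 8 weeks of age, from male and female littermates, pooled, with the health state given as unknown. The labels name no altered allele, no treatment, no intestinal segment and no number of animals. There is 1 group with 2 libraries, numbered as biological replicates 1 and 2, so no test between conditions exists and every value below is a level in a library or a difference between the 2 libraries.

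Dietary vitamin A reaches the gut as retinyl esters from animal food and as carotenoids from plants. Enterocytes take up carotenoids through scavenger receptors, cleave beta-carotene to retinal, reduce retinal to retinol, bind both on a small cytosolic carrier and esterify retinol for export in chylomicrons. Retinoic acid made from the same retinal acts through nuclear receptors, and in mice the homeodomain protein ISX is known to repress Scarb1 and Bco1.

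The carrier gene Rbp2 led the 8 genes in both libraries, with 61.2% of their summed TPM in replicate 1 and 65.2% in replicate 2 (TPM is a level per unit of transcript length, scaled to a fixed total per library). Isx, Retsat, Rdh7 and Scarb1 formed a middle tier, Lrat stood well below them, and Stra6 and Bco1 were near or under 1 TPM. Scarb1 was the only one of the 8 with the higher TPM in replicate 1, while the other 7 were higher in replicate 2. The isoform makeup of Scarb1 also differed between the libraries.

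Replicate 1 held 45472946 and replicate 2 held 45822403 expected counts. The libraries stand apart in markers of other tissues, and this touches every ratio below. The marker lists were chosen with earlier results of these data known. The 10 exocrine pancreas markers summed to 197100 TPM in replicate 1, against 1626 TPM in replicate 2, and the 8 stomach markers to 19750 TPM in replicate 1 against 51.12 TPM in replicate 2. All 6 markers of proximal intestine were higher in replicate 1 (summed 221.8 TPM in replicate 1 against 46.08 TPM in replicate 2). The pancreas and stomach markers were higher in that library too, so segment cannot be read apart from those tissues here. All 6 markers of distal intestine were higher in replicate 2 (88.12 TPM in replicate 1 against 859.8 TPM in replicate 2). Amn alone held 87.52 TPM of that sum in replicate 1 and 820.02 TPM in replicate 2. Only 1 of the 6 distal markers was at 1 TPM or more in both. Of the 10 enterocyte markers, 9 were higher in replicate 2 and Alpi in replicate 1, all were at 1 TPM or more in both, and their sums were 6714 TPM in replicate 1 against 10760 TPM in replicate 2. Alpi alone held 3758.93 TPM of that sum in replicate 1 against 1663.08 TPM in replicate 2. TPM is a share of a fixed total. The median gene lay at -0.66 log2 units for replicate 1 over replicate 2, and only 12.1% of the 12260 genes with a mean of at least 1 TPM were higher in replicate 1. Ratios are therefore given relative to that median gene, as log2((TPM + 1) / (TPM + 1)), replicate 1 over replicate 2. The added 1 draws ratios of low genes toward 0 before the median is subtracted. Centred ratios of low genes are thus drawn toward 0.66, the value of a gene with no count in either library. On that scale the 10 enterocyte markers had a median of -1.58, with 6 past 2-fold with replicate 2 higher and Alpi past it with replicate 1 higher. In bulk RNA, fewer cells of a type and less RNA per cell cannot be told apart.

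**Figure D1:**
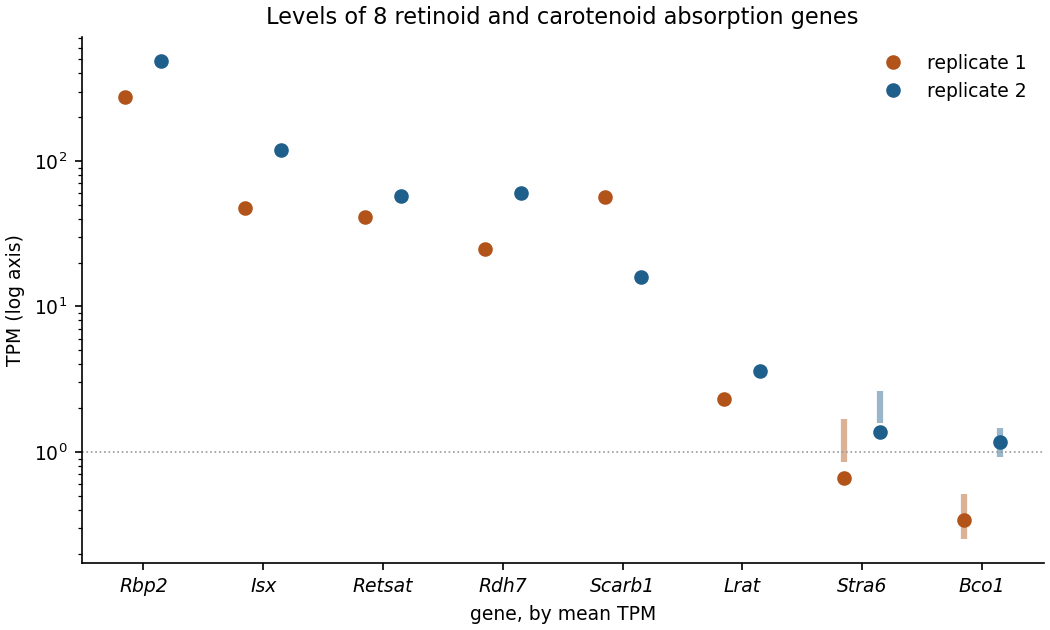
TPM of the 8 genes (log axis) in replicate 1 (orange) and replicate 2 (blue), with the deposited credibility interval of each as a bar and 1 TPM as a dotted line. Rbp2 is on top at 273 TPM in replicate 1 against 483 TPM in replicate 2, Scarb1 is the gene with replicate 1 above replicate 2, and the points of Stra6 lie under their intervals.

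By mean TPM the order was Rbp2, Isx, Retsat, Rdh7, Scarb1, Lrat, Stra6 and Bco1. Across the libraries the values of Rbp2 and Isx, of Scarb1 and Lrat, and of Lrat and Stra6 did not overlap, while those of the other neighbours did. Since the level of most genes differed between the libraries, neighbours were also compared within each. Isx was above Retsat in both libraries, with credibility intervals apart. Stra6 was above Bco1 in both by TPM. The Stra6 intervals lie above its own estimates, so they do not settle that order. In replicate 2 the Stra6 estimate of 1.38 TPM lay inside the Bco1 interval of 0.927 to 1.47 TPM. Retsat was above Rdh7 in replicate 1 and just under it in replicate 2, where their intervals overlapped. Rdh7 was under Scarb1 in replicate 1 and above it in replicate 2. Isx and Retsat were likewise under Scarb1 in replicate 1 and above it in replicate 2. The order of Isx, Retsat, Rdh7 and Scarb1 was therefore not the same in both. At a minimum of 1 TPM in both libraries 6 of the 8 genes were present, where 25.8% of all Ensembl genes were. That base includes noncoding genes and pseudogenes, while all 8 genes are protein-coding, so the 2 shares are not like for like. The summed level of all 8 was 446.7 TPM in replicate 1, against 740.2 TPM in replicate 2 (593.4 ± 208, SD, n = 2).

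Scarb1 encodes scavenger receptor class B type 1, a membrane receptor for lipoproteins that also takes up carotenoids and other fat-soluble compounds (ENSMUSG00000037936.11, chromosome 5, 125277087 to 125341094, minus strand, GRCm38). It was at 56.35 TPM in replicate 1 (credibility interval 55.1 to 58.2) and 15.81 TPM in replicate 2 (15.4 to 17.6), from 6431 expected counts in replicate 1 against 1384 in replicate 2. It ranked 1343rd of all genes in replicate 1 and 5156th in replicate 2. As a share of counts it was 4.68-fold higher in replicate 1, with a 95% exact binomial interval of 4.42 to 4.97 that covers counting error only. Relative to the median gene the log2 ratio was 2.43, at percentile 98.1 of the 12260 genes. It was the only gene of the 7 with a mean of at least 1 TPM that passed 2-fold with replicate 1 higher, where 6.32% of all genes did. None of the 7 passed 2-fold in the other direction, where 5.03% of all genes did. The proximal, pancreatic and stomach markers were higher in the same library, and their part in the Scarb1 difference was not tested.

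**Figure D2:**
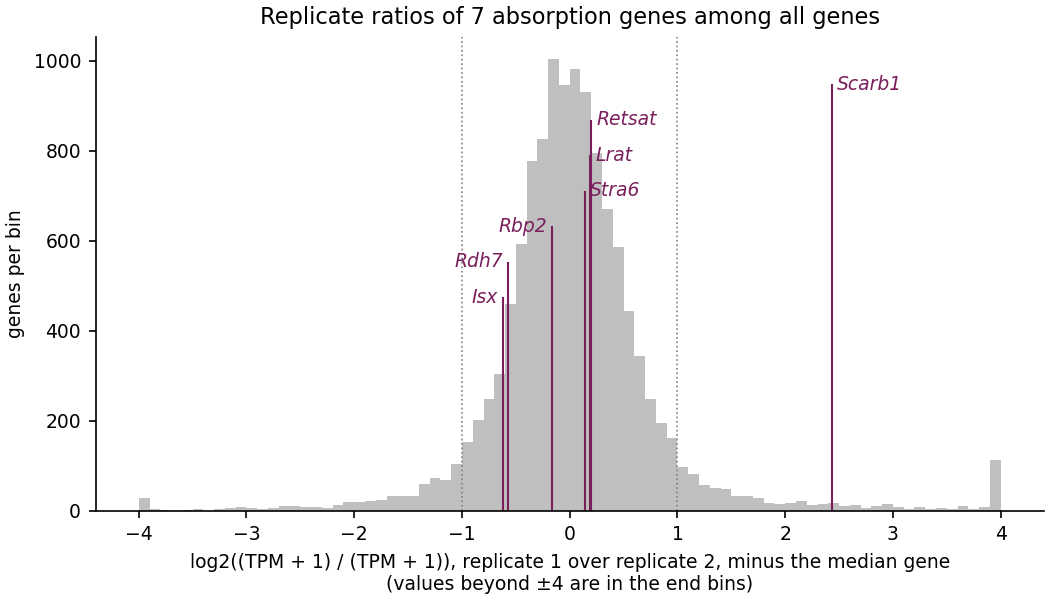
Distribution over 12260 genes of the log2 ratio of replicate 1 over replicate 2 relative to the median gene (x axis), as genes per bin (y axis), with lines at the 7 absorption genes of mean TPM of at least 1 and dotted lines at 2-fold. Scarb1 lies at 2.43, while the other 6 lie between -0.62 and 0.20, inside the bulk of the genes.

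Of 10 annotated Scarb1 transcripts 5 held counts, and the coding sequences of the 2 most abundant differ by 1 cassette exon. The transcript that includes it (ENSMUST00000086075.8) has 509 codons and encodes the form known as SR-BI. The one that skips it (ENSMUST00000111390.3) has 506 codons and encodes SR-BII. The exon is the 12th of 13, on chr5:125281105-125281233 of GRCm38 (minus strand), and is 129 bases long. It is coding throughout and ends in the stop codon of SR-BI. In the SR-BII transcript its 42 sense codons are replaced by 39 others from the next exon, so that the C-terminal tails of the 2 receptors differ. The exon is shown because it is the sequence whose inclusion differed between the libraries, with the stop codon in capitals:
Scarb1 exon 12: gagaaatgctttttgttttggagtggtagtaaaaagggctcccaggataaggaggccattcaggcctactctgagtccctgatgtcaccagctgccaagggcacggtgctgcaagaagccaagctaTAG

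The SR-BI transcript was at 44.75 TPM in replicate 1, against 9.04 TPM in replicate 2, a 4.95-fold difference with credibility intervals of 42.3 to 46.2 TPM in replicate 1, against 7.87 to 10.2 TPM in replicate 2. The SR-BII transcript was at 8.62 TPM in replicate 1 against 5.46 TPM in replicate 2, a 1.58-fold difference with intervals of 7.03 to 10.4 TPM in replicate 1, against 4.15 to 6.47 TPM in replicate 2. The SR-BI form carried most of the gap. Its share of the gene's TPM was 79.41% in replicate 1 against 57.19% in replicate 2 (68.3% ± 15.7, SD, n = 2), and that of SR-BII was 15.29% in replicate 1 against 34.56% in replicate 2. A transcript with a retained intron (ENSMUST00000148373.3) held 4.78% in replicate 1 against 6.44% in replicate 2. For context, the share of the leading transcript differed by over 10 points between the libraries in 33.4% of the 8400 protein-coding genes with several transcripts and a mean of at least 1 TPM, so a shift of this kind was common here.

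Stra6 is the membrane receptor that takes retinol from its plasma carrier RBP4, best known from the eye (ENSMUSG00000032327.10, chromosome 9, 58063788 to 58153996, plus strand). It was at 0.66 TPM in replicate 1, against 1.38 TPM in replicate 2, from 84 expected counts in replicate 1 against 135 in replicate 2. The deposited credibility intervals, 0.858 to 1.68 TPM in replicate 1, against 1.58 to 2.62 TPM in replicate 2, lie above these estimates and overlap each other. The posterior mean was 1.24 TPM in replicate 1 against 2.09 TPM in replicate 2. Nearly all of the estimate fell on 1 transcript, ENSMUST00000085677.4 (100% in replicate 1 against 97.85% in replicate 2), though by posterior mean that transcript held only 35.23% in replicate 1 against 51.5% in replicate 2, with the rest spread over the other annotated transcripts. The isoform makeup of this gene is not resolved at this depth. Stra6l, the related receptor of the gut and liver in mice, was at 1.83 TPM in replicate 1 against 5.80 TPM in replicate 2.

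Bco1 encodes beta-carotene oxygenase 1, the enzyme that cleaves beta-carotene into retinal (ENSMUSG00000031845.11, chromosome 8, 117095854 to 117133720, plus strand). It was the lowest of the 8, at 0.34 TPM in replicate 1 (interval 0.252 to 0.513) and 1.16 TPM in replicate 2 (0.927 to 1.47), from 32 expected counts in replicate 1 against 80 in replicate 2. As a share of counts it was 2.48-fold higher in replicate 2, with an exact interval of 1.63 to 3.86. Its mean of 0.75 TPM put it outside the set for centred ratios. Over the same libraries Scarb1 stood 166-fold above Bco1 in replicate 1 and 13.6-fold above it in replicate 2. The leading Bco1 transcript (ENSMUST00000176860.1) held 46.1% in replicate 1 against 72.14% in replicate 2 of the gene, but on 13.92 counts in replicate 1 and 58.75 in replicate 2. Its intervals, 9.95e-06 to 0.297 TPM in replicate 1, against 0.210 to 1.08 TPM in replicate 2, overlapped. Bco2, the oxygenase that cleaves carotenoids eccentrically, was at 4.40 TPM in replicate 1 against 7.0 TPM in replicate 2, above Bco1 in each library.

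Rbp2 encodes cellular retinol-binding protein 2, the abundant carrier of retinol and retinal in enterocytes (ENSMUSG00000032454.5, chromosome 9, 98486115 to 98509781, plus strand). It was at 273.16 TPM in replicate 1 (interval 265 to 278) and 482.83 TPM in replicate 2 (469 to 489), from 6066 counts in replicate 1 against 8635 in replicate 2, or 378 ± 148 TPM (SD, n = 2). Its ranks were nearly equal, 281st in replicate 1 and 280th in replicate 2. The ratio relative to the median gene was -0.16, within 2-fold, where the 10 enterocyte markers had a median of -1.58. A single transcript of 134 codons (ENSMUST00000035029.2) held 99.77% in replicate 1 against 99.69% in replicate 2 of the gene. Rbp2 was 118-fold above Lrat in replicate 1 and 134-fold above it in replicate 2, Lrat being the enzyme that esterifies the retinol it carries.

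Rbp2 and Bco1 are the ends of the order, and their upstream windows share a 9-base word, so both are printed. Windows from RefSeq (GRCm38.p6) were matched for 7 of the 8 genes and the 250 bases before each start site were searched on both strands. The words were the direct-repeat core CAAAGGTCA, read by HNF4 and by RXR partners, the TATA box TATAAA, and the CDX homeodomain core TTTAT. The words were picked after the windows had been read. TTTAT on one strand can lie within TATAAA on the other, so those matches overlap. The capitals mark the direct-repeat core, which is on the minus strand in both windows, chr9:98490287-98490536 for Rbp2 and chr8:117095615-117095864 for Bco1, each gene being on the plus strand:
Rbp2: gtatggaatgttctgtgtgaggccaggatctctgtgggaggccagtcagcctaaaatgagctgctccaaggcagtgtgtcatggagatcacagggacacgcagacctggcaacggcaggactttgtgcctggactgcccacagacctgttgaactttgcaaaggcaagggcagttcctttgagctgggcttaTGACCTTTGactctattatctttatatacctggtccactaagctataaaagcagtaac
Bco1: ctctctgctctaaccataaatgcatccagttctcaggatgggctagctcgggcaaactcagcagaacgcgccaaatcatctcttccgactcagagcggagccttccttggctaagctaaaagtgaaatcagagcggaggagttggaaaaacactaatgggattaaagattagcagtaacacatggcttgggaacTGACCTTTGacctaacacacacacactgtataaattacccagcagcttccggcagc

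The first base of the match is at position -58 in Rbp2 and -56 in Bco1, counted from the start site. This core was in 0.43% of 32536 windows, and in none of those of Lrat, Retsat, Isx, Stra6 and Rdh7. TATAAA was in 12.3% of all windows, and among the 7 genes in those of Rbp2 (2 matches), Bco1 (position -28) and Retsat (position -30). TTTAT, in 37.2% of all windows, was in windows of Rbp2, Bco1, Retsat, Stra6 and Rdh7. A match describes the letters only. Rbp2 and Bco1, which share the core, were the highest and the lowest of the 8 genes. Of the factors that read these words, Hnf4a was at 143.39 TPM in replicate 1 against 325.24 TPM in replicate 2, Rxra at 39.25 TPM in replicate 1 against 91.04 TPM in replicate 2, and Cdx2 at 93.13 TPM in replicate 1 against 281.58 TPM in replicate 2.

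Rdh7 is a microsomal short-chain dehydrogenase that acts on retinol and on steroids in mice (ENSMUSG00000040134.8, chromosome 10, 127884028 to 127888817, minus strand). It was at 24.81 TPM in replicate 1 (interval 23.5 to 25.8) and 59.83 TPM in replicate 2 (57.3 to 61.2), from 1820 counts in replicate 1 against 3441 in replicate 2. The ratio relative to the median gene was -0.57. All counts fell on 1 of its 2 transcripts. Rdh7 lies in a cluster of close copies on chromosome 10, with coding sequences 84.2% to 87.5% identical to it for Rdh1, Rdh16, Rdh16f1, Rdh19, Rdh9 and Rdh16f2. Rdh9 was the next highest of the cluster at 6.41 TPM in replicate 1 against 33.51 TPM in replicate 2. Rdh16 was at 1.35 TPM in replicate 1 against 3.65 TPM in replicate 2, Rdh16f2 at 1.70 TPM in replicate 1 against 2.93 TPM in replicate 2, Rdh1 at 0.01 TPM in replicate 1 against 0.01 TPM in replicate 2, Rdh19 at 0.01 TPM in replicate 1 against 0.03 TPM in replicate 2, and Rdh16f1 had no count in either library. The expected counts of Rdh7 were whole numbers in both libraries. Those of Rdh9 (657.04 in replicate 1 against 2703.78 in replicate 2) and Rdh16 (198.96 in replicate 1 against 422.37 in replicate 2) held fractions. Reads in the most similar stretches could be divided between copies such as these, so the split among them carries that uncertainty.

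Retsat encodes retinol saturase, which reduces a double bond of retinol to give dihydroretinol (ENSMUSG00000056666.9, chromosome 6, 72598475 to 72608425, plus strand). It was at 41.29 TPM in replicate 1 (interval 38.6 to 43.8) and 57.50 TPM in replicate 2 (54.7 to 61.5), from 3884 counts in replicate 1 against 3877 in replicate 2, with a ratio of 0.20 relative to the median gene. As a share of counts, replicate 1 over replicate 2, it was 1.01-fold (exact interval 0.965 to 1.06), while its TPM was 1.39-fold higher in replicate 2. Its mean effective length, by which TPM divides, was 1849.5 bases in replicate 1 and 1711.96 bases in replicate 2. Retsat-205 held 57.76% in replicate 1 and 73.6% in replicate 2 of the gene's TPM, and Retsat-201 held 36.66% in replicate 1 against 23.24% in replicate 2. Retsat-205 was at 23.85 TPM in replicate 1 against 42.32 TPM in replicate 2, and Retsat-201 at 15.14 TPM in replicate 1 against 13.36 TPM in replicate 2. The model of Retsat-205 is 1647 bases long with 1644 coding bases, so it holds no untranslated sequence beyond the stop codon, unlike the 3027 bases of Retsat-201. What this does to the shares was not tested.

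Retsat-205 also lacks the second exon of Retsat-201, 183 bases and 61 codons on chr6:72600973-72601155 (plus strand), which leaves 548 of 609 codons with the reading frame kept. The exon is printed because it is the coding difference between the 2 leading forms of the gene. All its bases are coding and none is in capitals:
Retsat exon 2: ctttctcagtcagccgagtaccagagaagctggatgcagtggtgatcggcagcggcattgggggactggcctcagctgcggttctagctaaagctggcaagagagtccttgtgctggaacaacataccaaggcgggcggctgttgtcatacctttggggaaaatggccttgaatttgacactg

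Lrat encodes lecithin retinol acyltransferase, which makes the retinyl esters that leave in chylomicrons (ENSMUSG00000028003.6, chromosome 3, 82892579 to 82903973, minus strand). It was at 2.32 TPM in replicate 1 (interval 2.12 to 2.49) and 3.60 TPM in replicate 2 (3.31 to 3.83), from 603 counts in replicate 1 against 728 in replicate 2 on its 1 annotated transcript. The ratio relative to the median gene was 0.19. Dgat1, which makes triglycerides and can esterify retinol as well, was at 637.61 TPM in replicate 1 against 1831.47 TPM in replicate 2. Awat2, an acyltransferase of skin, was at 0.20 TPM in replicate 1 against 0.22 TPM in replicate 2.

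Isx is the intestine-specific homeobox gene, whose protein limits vitamin A production in mice (ENSMUSG00000031621.5, chromosome 8, 74873173 to 74893506, plus strand). It was second by mean, at 47.77 TPM in replicate 1 (interval 45.8 to 49.0) and 118.07 TPM in replicate 2 (114 to 119.8), from 3665 counts in replicate 1 against 6914 in replicate 2. The ratio relative to the median gene was -0.62, within 2-fold. Set against Scarb1 inside each library, which no scaling of the library affects, Isx was 0.848 times Scarb1 in replicate 1 and 7.47 times Scarb1 in replicate 2. That is a log2 ratio of -0.24 in replicate 1 against 2.90 in replicate 2 (1.33 ± 2.22, SD, n = 2), a mean smaller than its SD. With 2 libraries no relation between these genes can be tested.

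Isx-201 held 93.62% of the gene in replicate 1 and 88.45% in replicate 2, and Isx-202 held 6.38% in replicate 1 against 11.55% in replicate 2. Isx-202 was at 3.05 TPM in replicate 1 (interval 2.35 to 3.81) and 13.63 TPM in replicate 2 (11.9 to 15.3), a 4.47-fold difference that compares with 2.34-fold for Isx-201, both higher in replicate 2. Isx-202 ends the third exon 41 bases earlier than Isx-201, on chr8:74891875-74891915 (plus strand). As 41 is not a multiple of 3, the frames part, and the forms end at 240 codons (Isx-201) and 242 codons (Isx-202). The stretch is printed, all in lower case, because its loss shifts the reading frame:
Isx-201 exon 3 end: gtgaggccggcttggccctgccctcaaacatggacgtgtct

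**Figure D3:**
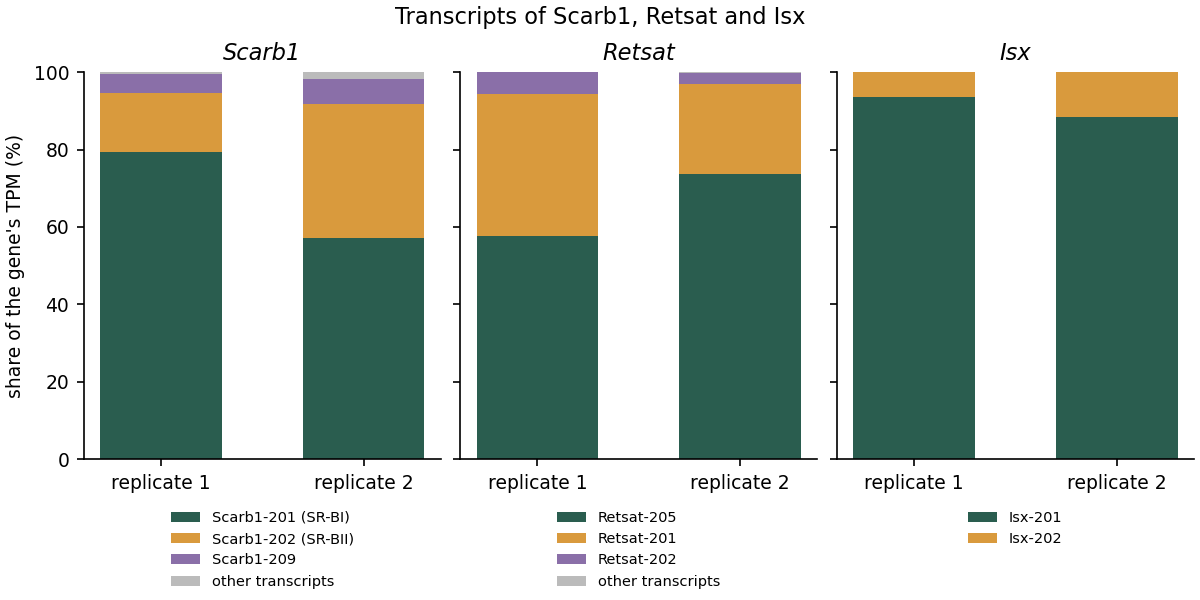
Share of each gene's TPM (y axis, percent, from 0) by transcript for Scarb1, Retsat and Isx in replicate 1 (left bar) and replicate 2 (right bar). The SR-BI transcript of Scarb1 is at 79.41% in replicate 1 against 57.19% in replicate 2, Retsat-205 at 57.76% in replicate 1 against 73.6% in replicate 2, and Isx-201 at 93.62% in replicate 1 against 88.45% in replicate 2.

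Of the 8 genes, 7 had credibility intervals apart between the libraries, Stra6 being the exception and Bco1 lying under the mean of 1 TPM. Intervals lay apart in 79.9% of the 12260 genes, so this is near the general rate. The median ratio of the 7 genes in the centred set was 0.14 relative to the median gene, beside -1.58 for the 10 enterocyte markers. That median is the value of Stra6, a gene near 1 TPM, whose ratio was -0.18 at a pseudocount of 0.1. Over the settings tried, including no centring, the ratio kept its sign for Scarb1 (1.77 to 2.62 over 10 settings), Isx (-1.29 to -0.46) and Rdh7 (-1.24 to -0.42), as the plot of ratios by setting shows. It turned negative for Retsat (-0.47 to 0.44) and Lrat (-0.47 to 0.19) without centring and with no filter on low values, and varied in sign for Stra6 (-0.52 to 0.18). Rbp2 ran from -0.82 without centring up to 0. Scarb1 was past 2-fold in each setting, and Isx and Rdh7 passed it only without centring.

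**Figure D4:**
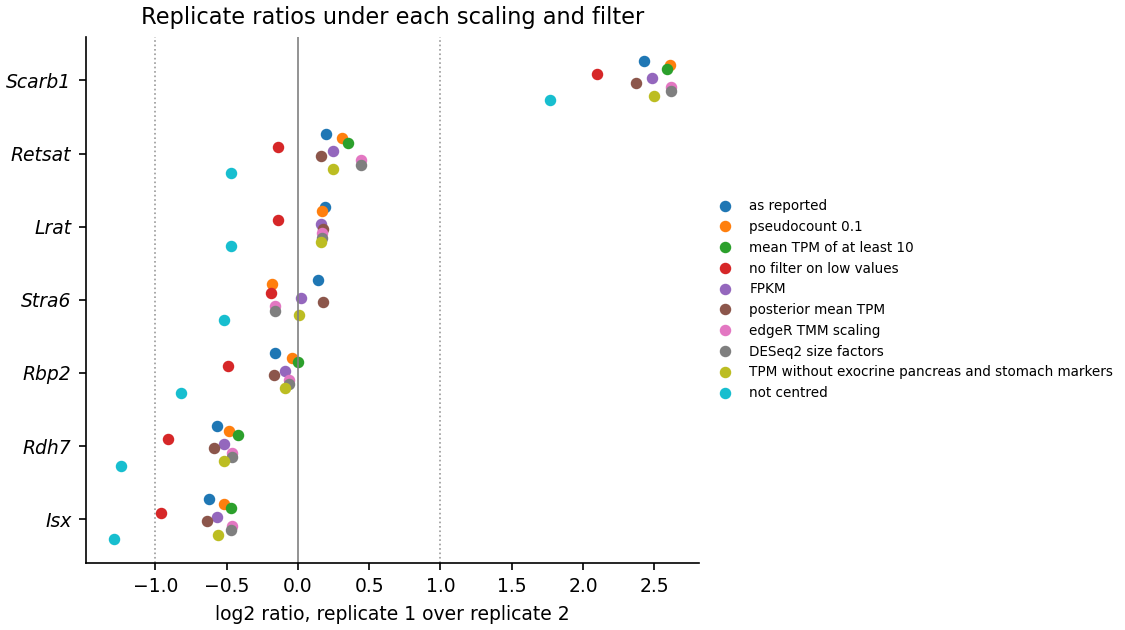
Log2 ratio of replicate 1 over replicate 2 (x axis) for 7 genes (rows) under the reported setting and 9 alternatives (colours), with dotted lines at 2-fold. Scarb1 stays right of 1 in all 10, Isx and Rdh7 stay left of 0, and the values without centring and with no filter on low values lie left of the rest.

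Genes with the most similar levels in both libraries were sought by distance in log2(TPM + 1) over the 2 libraries, so likeness here means level only. Nearest to Rbp2 was Tm4sf5 (265.7 TPM in replicate 1 against 480.83 TPM in replicate 2, distance 0.040), and nearest to Isx was Mon1a (47.35 TPM in replicate 1 against 120.65 TPM in replicate 2, distance 0.033). For Rdh7 the second nearest gene was Dhrs3, itself a retinal reductase, at 24.58 TPM in replicate 1 against 58.31 TPM in replicate 2. Scarb1 had no close match, with Abhd3 nearest at 48.87 TPM in replicate 1 against 15.43 TPM in replicate 2 (distance 0.204).

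The rest of the pathway was covered by 65 genes in 8 lists, chosen with earlier results of these data known. Of the 50 with a mean of at least 1 TPM, 9 were past 2-fold with replicate 1 higher and 8 with replicate 2 higher, relative to the median gene, beside 6.32% and 5.03% of all genes in those directions. The 9 include Cel and Pnlip, which are also pancreas markers. Of all 65 genes, 45 were at 1 TPM or more in both libraries, where 25.8% of all Ensembl genes, coding and noncoding, were.

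All 4 enzymes that free retinol from its esters in the lumen were past 2-fold, 3 with replicate 1 higher and Plb1 with replicate 2 higher. Of all genes, 6.32% were past it with replicate 1 higher and 5.03% with replicate 2 higher. Cel and Pnlip are also on the pancreas marker list, so they restate that difference between the libraries. Plb1, the brush-border phospholipase B known as a retinyl ester hydrolase, was at 0.05 TPM in replicate 1, against 120.72 TPM in replicate 2, from 4 counts in replicate 1 and 10104 in replicate 2. The pancreatic lipases went the other way, with Cel at 4098.22 TPM in replicate 1 against 7.17 TPM in replicate 2 and Pnlip at 3734.57 TPM in replicate 1 against 9.34 TPM in replicate 2, as did the other pancreas markers. Pnliprp2 was at 178.87 TPM in replicate 1 against 66.59 TPM in replicate 2. Beside 5.03% of all genes, 3 of the 5 uptake and efflux genes in the centred set were past 2-fold with replicate 2 higher. These were the cholesterol transporter gene Npc1l1 (129.5 TPM in replicate 1 against 671.02 TPM in replicate 2) and the sterol exporter subunits Abcg5 (58.91 TPM in replicate 1 against 273.16 TPM in replicate 2) and Abcg8 (50.27 TPM in replicate 1 against 237.59 TPM in replicate 2). Cd36, a fatty acid translocase that can carry carotenoids, was at only 0.50 TPM in replicate 1 against 1.36 TPM in replicate 2. These 3 genes had ratios of -1.70, -1.53 and -1.55, beside a median of -1.58 for the enterocyte markers. The distal and most enterocyte markers were higher in the same library as these 3 genes and Plb1, and their part was not tested.

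Of 18 genes that interconvert retinol and retinal, 12 were at 1 TPM or more in both libraries, beside 25.8% of all Ensembl genes, coding and noncoding. Of those 12, 2 were past 2-fold with replicate 1 higher and 1 with replicate 2 higher, beside 6.32% and 5.03% of all genes. Adh1, a cytosolic alcohol dehydrogenase that oxidises retinol, was the highest at 177.25 TPM in replicate 1 against 112.69 TPM in replicate 2, with a ratio of 1.31, and Adh4 was at 9.46 TPM in replicate 1 against 1.41 TPM in replicate 2 with a ratio of 2.78. Rdh9 had a ratio of -1.56. Rdh10, the dehydrogenase that supplies retinal for retinoic acid in mouse embryos, was at 7.22 TPM in replicate 1 against 9.76 TPM in replicate 2. Sdr16c5 had no count in either library, so its share of counts lay under 6.60e-06% in replicate 1, against 6.55e-06% in replicate 2, if 3 counts are the most that a count of 0 leaves room for (counting error only).

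Esterification and packaging genes summed to 5175 TPM in replicate 1 against 19320 TPM in replicate 2. Apoa1, of high-density particles and chylomicrons, held 2549.36 TPM in replicate 1 against 13041.59 TPM in replicate 2. Apoa4, of chylomicrons, held 1915.78 TPM in replicate 1 against 4255.44 TPM in replicate 2. Beside 5.03% of all genes, 2 of the 5 genes of this list in the centred set were past 2-fold with replicate 2 higher. These were Apob (23.78 TPM in replicate 1 against 106.76 TPM in replicate 2) and Apoa1. The ratios were -1.46 for Apob and -1.69 for Apoa1, also beside the enterocyte marker median of -1.58, and the part of those markers was not tested. Mttp, which loads lipid onto apolipoprotein B, was within 2-fold (48.47 TPM in replicate 1 against 88.04 TPM in replicate 2). Other retinoid carriers named here were far under Rbp2. Rbp4, the plasma carrier of retinol, was at 3.42 TPM in replicate 1 against 4.76 TPM in replicate 2, Crabp1 at 0.69 TPM in replicate 1 against 2.65 TPM in replicate 2, and the photoreceptor and retinal epithelium genes Rbp3 and Rlbp1 had no count. In the binding protein list, 3 of the 7 genes in the centred set were past 2-fold with replicate 1 higher, beside 6.32% of all genes. Among them were Ttr (8.28 TPM in replicate 1 against 2.43 TPM in replicate 2), the plasma partner of RBP4, and Fabp5 (3.94 TPM in replicate 1 against 1.96 TPM in replicate 2), a fatty acid carrier that also binds retinoic acid.

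None of the 4 retinoic acid enzymes and none of the 4 receptors in the centred set was past 2-fold. Of all genes, 6.32% were with replicate 1 higher and 5.03% with replicate 2 higher, so none among so few is near the general rate. Aldh1a1, which oxidises retinal to retinoic acid, was at 9.47 TPM in replicate 1 against 9.30 TPM in replicate 2, Aldh1a3 at 5.66 TPM in replicate 1 against 8.93 TPM in replicate 2 and Aldh1a2 at 4.57 TPM in replicate 1 against 5.05 TPM in replicate 2. Cyp26a1, the retinoic acid hydroxylase that retinoic acid induces, was at 0 TPM in replicate 1 against 0.05 TPM in replicate 2, from 0 counts in replicate 1 against 3 in replicate 2. Among receptors Rxra led at 39.25 TPM in replicate 1 against 91.04 TPM in replicate 2, followed by Rara (20.36 TPM in replicate 1 against 46.49 TPM in replicate 2) and Rxrb (18.73 TPM in replicate 1 against 45.17 TPM in replicate 2), with Rarg at 4.76 TPM in replicate 1 against 5.49 TPM in replicate 2. Rarb and Rxrg were under 1 TPM in both. Of 9 regulators of enterocyte genes, Cdx1 (53.09 TPM in replicate 1 against 291.86 TPM in replicate 2) was past 2-fold with replicate 2 higher and Pparg (8.04 TPM in replicate 1 against 4.14 TPM in replicate 2) with replicate 1 higher. Gata4, a factor of proximal intestine, was at 95.54 TPM in replicate 1 against 104.18 TPM in replicate 2.

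**Figure D5:**
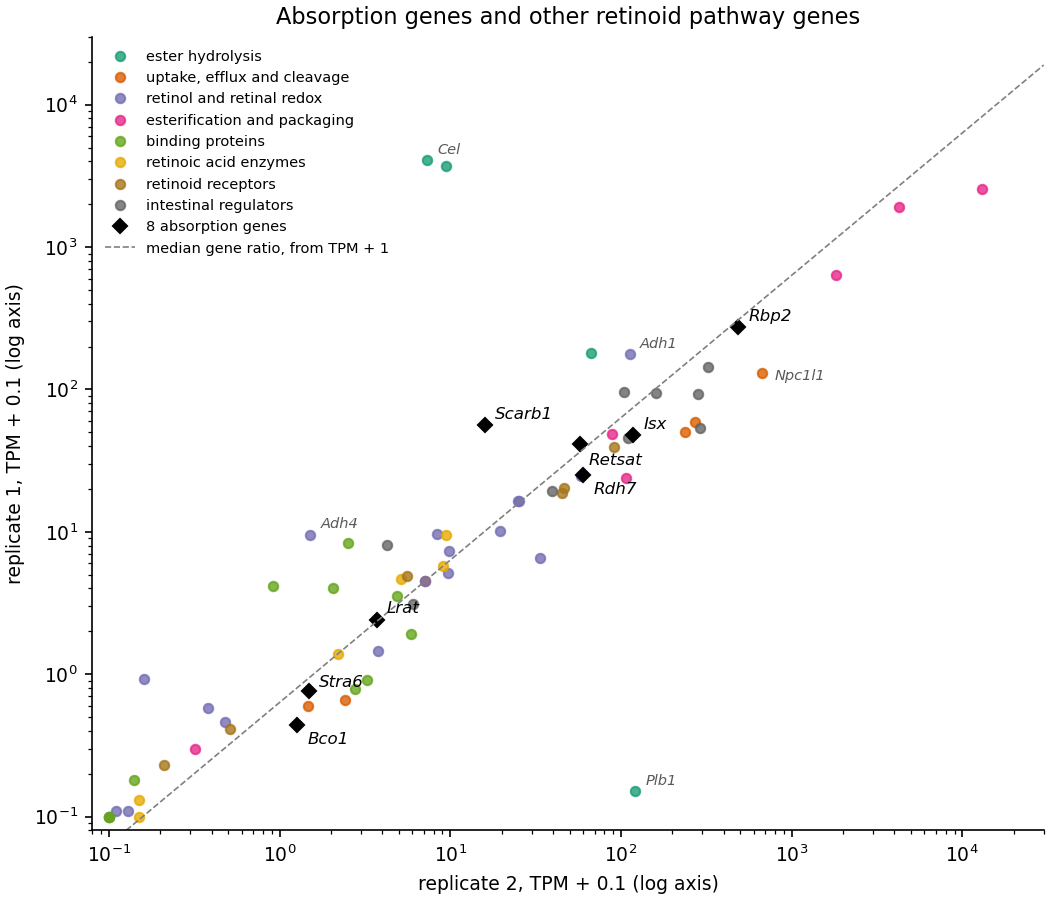
TPM + 0.1 in replicate 1 (y axis, log) against replicate 2 (x axis, log) for the 8 absorption genes (black diamonds) and 65 other pathway genes (coloured by list), with the median gene ratio as a dashed line. Scarb1 lies above the line at 56.35 TPM in replicate 1 against 15.81 TPM in replicate 2, while Plb1 lies far below it at 0.05 TPM in replicate 1 against 120.72 TPM in replicate 2 and Cel far above it at 4098.22 TPM in replicate 1 against 7.17 TPM in replicate 2.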

How the data were processed

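Each library has a gene table and a transcript table. Per the deposited notes, assembly mm10 and annotation M4 were used. No source used here gives the aligner or quantifier. Per the labels, RNA over 200 nt was poly(A)-selected, depleted of ribosomal RNA and read from both ends in stranded reads of 76 nt. The deposited expected counts are estimated fragments per feature. The deposited TPM, posterior mean TPM and FPKM values are scaled by effective length and library total, spike-ins included. The deposited percent of each gene's TPM per transcript gave the isoform shares. The level of the deposited credibility intervals is not stated.

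Symbols, coordinates and exons came from GENCODE M21 on GRCm38 by stable identifier, which matched 42462 of 43346 genes (98.0%) and all 8 members; 95% exact binomial intervals used rounded counts. Features that are no gene held 1.05% of counts in replicate 1 against 1.03% in replicate 2. The libraries' rounded counts differed beyond counting noise (chi-square 1194 per degree of freedom over 17045 genes with 10 or more counts). The labels give the replicates separate biosamples under a shared strain entry and no animals, so their spread may be partly technical.

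The members and lists were chosen with earlier results of these data known. The named genes are the members, genes of the fixed pathway and marker lists, the 3 nearest genes by level, and overlapping or paralogous genes; an item of these lists is not reported here. Alternatives were another pseudocount, other TPM minimums, FPKM, posterior mean TPM, counts scaled with edgeR 4.0.16 (TMM) or DESeq2 1.42.0 (size factors) in R 4.3.3, TPM rescaled without pancreas and stomach markers, and no centring. Other steps used Python 3.11.15, pandas 2.3.3, scipy 1.17.1 and Biopython 1.88.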

Additional observations from a re-analysis of the deposited data

How the results depend on the processing

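No paired analysis was possible because there is 1 group. The number of absorption genes past 2-fold was 1 (Scarb1) as reported and under 8 alternatives, and 3 without centring, where Isx and Rdh7 joined with replicate 2 higher and 24.9% of all genes did so too. Their median ratio was 0.14 as reported, -0.52 without centring and -0.28 with no filter on low values, and lay between -0.06 and 0.16 under the other 7 alternatives, so its sign is not settled. The number of genes at the TPM minimum in both libraries was 6, and between 5 and 8 under other minimums, units or single libraries. The mean summed TPM was 593.4 as reported and between 567.9 and 655.9 as FPKM, posterior mean TPM or rescaled TPM, with 446.7 TPM in replicate 1 alone and 740.2 TPM in replicate 2 alone. The share of Rbp2 stayed between 61.2% and 65.2%. The 7 isoform shares recomputed from posterior means moved by less than the spread between replicates; a mean of 2 libraries always moves by less than their SD when 1 is left out, so leaving out a library says nothing about stability here. Ratios could not be computed without either replicate. Depth limits the isoforms of Stra6 and Bco1, and the difference in tissue content between the libraries cannot be told apart from any difference in the genes themselves.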

Other observations

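Markers of other cell types that could hold some of these genes were measured in both libraries. The 6 fibroblast and stellate markers summed to 253.4 TPM in replicate 1, against 216.8 TPM in replicate 2. Des, an intermediate filament gene also of muscle, alone held 173.65 TPM of that sum in replicate 1 against 124.45 TPM in replicate 2. Des, Dcn and Lum were higher in replicate 1, and Pdgfra, Pdgfrb and Col1a1 in replicate 2, so the list had no common direction. The 5 macrophage and dendritic markers summed to 65.58 TPM in replicate 1 against 88.92 TPM in replicate 2, led by the complement gene C1qa at 28.16 TPM in replicate 1 against 45.69 TPM in replicate 2. The 4 endothelial markers summed to 32.09 TPM in replicate 1 against 75.38 TPM in replicate 2, led by Vwf at 19.8 TPM in replicate 1 against 52.06 TPM in replicate 2. The 5 hepatocyte markers summed to 8.92 TPM in replicate 1 against 5.92 TPM in replicate 2. Ttr alone held 8.28 TPM of that sum in replicate 1 against 2.43 TPM in replicate 2. The albumin gene Alb was at 0.24 TPM in replicate 1 against 0 TPM in replicate 2. Apoh (0.02 TPM in replicate 1 against 2.75 TPM in replicate 2) and Serpina1a (0.38 TPM in replicate 1 against 0.74 TPM in replicate 2) went the other way. The fibrinogen gene Fgb was without a count. The 3 adipocyte markers summed to 5.31 TPM in replicate 1 against 1.77 TPM in replicate 2, with Plin1 at 3.20 TPM in replicate 1 against 0.93 TPM in replicate 2.

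Genes that overlap the absorption genes in the annotation held few counts where counts were given. Gm42633, on the same strand as Scarb1, and Gm45053, on the strand opposite Retsat, had no entry in the deposited data, so their level is unknown. Gm37113 inside Rbp2 had 12 counts in replicate 1 against 15 in replicate 2, Ccdc33, on the strand opposite Stra6, had 2 counts in each, and Rbm46os, Gm16131 and Gm20694 had none in either library.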
